A study of Mus musculus with 56 samples.

Results

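The arrays described here compared mouse cortical neurons that received a short hairpin RNA (shRNA) against Top2b with neurons that received the control shRNA of the same experiment. They are the 6 of the 56 arrays of the series that carry these titles, 3 with Top2b shRNA and 3 with control shRNA. The hairpins were delivered with lentivirus, and the control hairpin was scrambled. A further group of 3 arrays, neurons given Top1 shRNA, belonged to the same experiment and shares these controls. All 9 cultures were C57BL6 cortical neurons from embryos of day 13 to 15, kept for 7 days in vitro, and no group carried another genetic change by the labels. Total RNA was measured on whole-transcript gene arrays. The hairpin sequences, the number of hairpins and the time between infection and RNA preparation are not given in the sources used here. The free-text descriptions of these samples name drug treatments that their titles and treatment labels do not, and the groups were taken from the titles. Nothing states that the 3 replicates of a group were separate cultures, so the p-values measure the spread between these samples, which may be technical.

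TOP2B is the type II DNA topoisomerase of cells that have stopped dividing. It cuts both strands of a DNA duplex, passes another duplex through the gap and reseals the break, which relieves the twist and tangles left by transcription. Its relative TOP2A does the same work mainly in dividing cells, and TOP1 relieves twist by cutting 1 strand. In neurons TOP2B is known for acting on genes that are switched on as the neuron matures, including long genes for axon growth and synaptic contact. The study asked how loss of topoisomerase activity changes neuronal genes, in particular autism candidate genes.

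Replicate 1 of every group lay apart from replicates 2 and 3. Mean array intensity was 180.28, 141.953 and 141.168 in the Top2b shRNA arrays of replicates 1, 2 and 3, against 179.613, 141.072 and 137.819 in the control shRNA arrays. Replicates 2 and 3 correlated across genes at r = 0.989 for Top2b shRNA and 0.992 for control shRNA, while replicates 1 and 2 correlated at 0.908 and 0.903. Comparisons are therefore given within each replicate number as well, and with the replicate number as a block, meaning that the fit estimates a level for each number. The mean difference is the same with and without the block. Of 22180 genes on the array, 13308 were bright enough to test. All 14 pan-neuronal marker genes looked for were bright enough to test, among them Map2, a dendritic cytoskeletal protein. Their summed level, given with the other markers, was lower with Top2b shRNA.

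Top2b (chromosome 14), the targeted gene, was lower with Top2b shRNA within each replicate number, but by unequal amounts. Its log2 intensity was 8.62, 6.87 and 6.80 in Top2b shRNA replicates 1, 2 and 3, against 9.30, 8.39 and 8.17 in control shRNA replicates 1, 2 and 3. Replicate 1 of Top2b shRNA lay above control replicates 2 and 3, so the groups overlap, and it also lay above the 8.25 of Top1 shRNA replicate 1. The within-number differences were −0.68, −1.52 and −1.37 log2 units. The mean difference of −1.19 ± 0.47 (SE) log2 units, a 2.28-fold lower level, did not pass in limma's fit (adjusted p = 0.22), nor with the block (adjusted p = 0.0977). Without replicate 1 it was −1.44 (adjusted p = 0.00185). The library labelled Top2b shRNA replicate 1 therefore showed the smallest loss of its target, and directions that rest on it are given separately.

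The other topoisomerases did not pass the test. Top1 stood at 8.88, 8.61 and 8.83 with Top2b shRNA and at 8.98, 8.46 and 8.55 with control shRNA (difference 0.11 ± 0.26, adjusted p = 0.889). The groups overlapped. Top2a stood at 8.39, 5.69 and 5.48 with Top2b shRNA and at 5.21, 5.67 and 5.52 with control shRNA. Only Top2b shRNA replicate 1 was high for Top2a among these 6 arrays, and the summed signal of genes of dividing cells was highest in the same array. Of 16 genes for topoisomerases and their partners that were bright enough, 0 passed in limma's fit with or without the block.

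**Figure D1:**
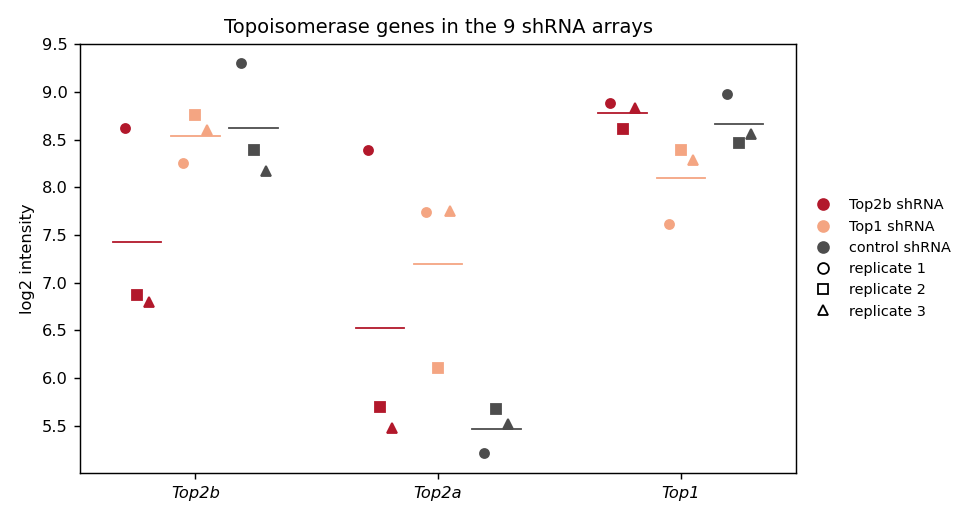
Log2 intensity (vertical axis) of Top2b, Top2a and Top1 in the 3 arrays each of Top2b shRNA, Top1 shRNA and control shRNA; symbols give the replicate number and bars the group means. Top2b is at 6.87 and 6.80 in Top2b shRNA replicates 2 and 3 but at 8.62 in replicate 1, which is also the array where Top2a reaches 8.39.

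In the fit of the 9 arrays, 414 of 13308 genes (3.11%) passed an adjusted p of 0.05 between Top2b shRNA and control shRNA. Of these, 265 (1.99%) were higher and 149 (1.12%) were lower with Top2b shRNA. For all 414 the groups did not overlap and the 3 within-number differences had 1 direction. With the replicate number as a block the count was 1352 (10.2%), with 742 higher (5.58%) and 610 lower (4.58%), and these included the 414. Irrespective of any test, 3243 genes (24.4%) were higher within all 3 numbers and 4104 (30.8%) were lower within all 3. Likewise, every Top2b shRNA array lay above every control array for 1685 of the 13308 genes, and below for 2048. Groups that do not overlap were therefore not particular to the genes that passed. The differences within numbers 2 and 3 correlated across genes at r = 0.856, those within numbers 1 and 2 at 0.486 and those within 1 and 3 at 0.434, where each pair shares no array and genes are not independent replicates. The count depended on which arrays were kept. Leaving out replicate 2 or replicate 3 of every group left 0 calls in limma's fit (968 and 1125 genes at an unadjusted p under 0.05), leaving out any single Top2b shRNA or control shRNA array of replicates 2 and 3 also left 0, and leaving out replicate 1 of every group gave 3003. Without the filter on dim genes the count was 0 as well, with 2211 genes at an unadjusted p under 0.05.

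**Figure D2:**
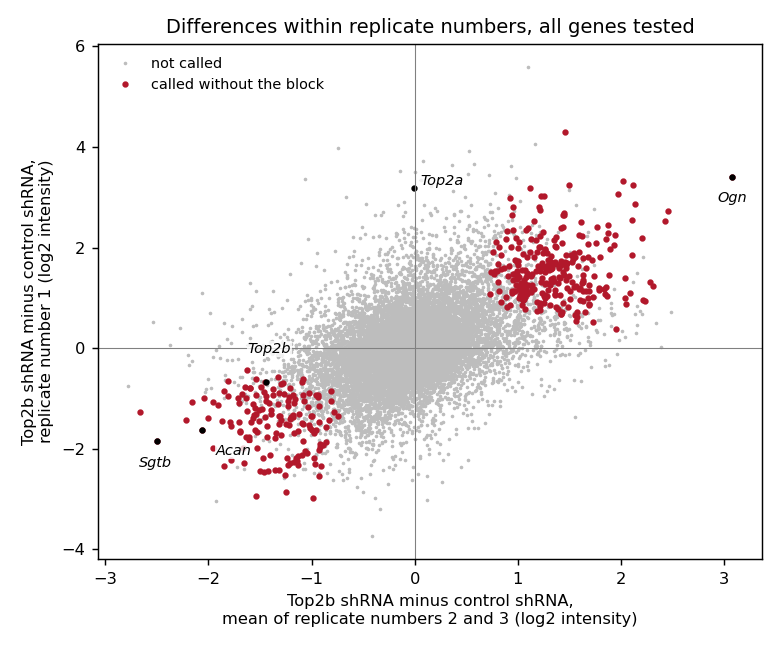
Top2b shRNA minus control shRNA in log2 intensity for each of the 13308 genes, in replicate number 1 (vertical axis) against the mean of replicate numbers 2 and 3 (horizontal axis); red points are the 414 genes called without the block and black points are named genes. Ogn, Sgtb and Acan move alike on both axes, Top2b moves less in number 1, and Top2a moves in number 1 only.

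The genes that rose most included genes known from connective tissue and smooth muscle. Ogn, which encodes osteoglycin, a small proteoglycan of the extracellular matrix, stood at 9.45, 10.72 and 10.39 with Top2b shRNA, against 6.04, 7.46 and 7.49 with control shRNA. Every Top2b shRNA array lay above every control array, and the difference was 3.19 ± 0.50 log2 units, or 9.13-fold (adjusted p = 0.0166). Cnn2, an actin-binding calponin, stood at 8.53, 9.87 and 9.55 with Top2b shRNA and at 5.80, 7.39 and 7.11 with control shRNA (2.55 ± 0.46, adjusted p = 0.0233). Its paralog Cnn1, found in smooth muscle, stood at 8.36, 9.38 and 8.88 with Top2b shRNA and at 5.81, 7.01 and 7.04 with control shRNA (2.26 ± 0.37). Myl9, a regulatory light chain of smooth muscle myosin, rose by almost the same amount within each number: 8.76, 9.86 and 9.46 with Top2b shRNA against 6.56, 7.67 and 7.24 with control shRNA (2.20 ± 0.34). In these contractile genes replicate 1 was the lowest array of each group, and the groups did not overlap.

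Matrix genes made up 4 of the other 8 of the 12 largest rises. Col8a1, a short-chain collagen, stood at 7.90, 8.87 and 8.65 with Top2b shRNA and at 5.38, 6.38 and 6.29 with control shRNA (2.46 ± 0.34, adjusted p = 0.0166). Fbln5, a fibulin that organises elastic fibres, rose by 2.46 ± 0.54 (adjusted p = 0.0403), and Lox, the lysyl oxidase that crosslinks collagen and elastin, by 2.34 ± 0.46 (adjusted p = 0.0278). Thbs1, the matrix glycoprotein thrombospondin 1, stood at 10.56, 10.94 and 10.79 with Top2b shRNA, against 8.12, 9.04 and 8.94 with control shRNA (2.06 ± 0.32). The last 4 were Ecrg4, a secreted peptide precursor of the choroid plexus (2.49 ± 0.43), Naaa, a lysosomal lipid amidase (2.41 ± 0.49), Il1r1, the receptor for interleukin 1 (2.38 ± 0.46), and Bmp6, a secreted bone morphogenetic protein (2.08 ± 0.35). Naaa and Bmp6 were uneven: within number 1 their differences were 4.30 and 3.24, against 1.39 and 1.46 within number 2. All 12 rises also passed in limma's fit with Top1 shRNA against the same controls. Among them were Ogn (2.92, adjusted p = 0.00752), Col8a1 (2.82, adjusted p = 0.00264) and Thbs1 (2.14, adjusted p = 0.00457).

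The promoters of Cnn2 and Myl9 are shown because they are the windows among the 12 largest rises that hold a CArG box, the motif bound by serum response factor, a regulator of contractile genes. The windows are RefSeq sequences of the GRCm38.p6 build, from 250 bases before to 50 bases after the annotated start, and the motif is in capitals. The Cnn2 window lies at chr10:79988350-79988649 on the + strand with the motif starting 56 bases before the gene's start, and the Myl9 window lies at chr2:156775214-156775513 on the + strand with the motif starting 161 bases before it.
Cnn2: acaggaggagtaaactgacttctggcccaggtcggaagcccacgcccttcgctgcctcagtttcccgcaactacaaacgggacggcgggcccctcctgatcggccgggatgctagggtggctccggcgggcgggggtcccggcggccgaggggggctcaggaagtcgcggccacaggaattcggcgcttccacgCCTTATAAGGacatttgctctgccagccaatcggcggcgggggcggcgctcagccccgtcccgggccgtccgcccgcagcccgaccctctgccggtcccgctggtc
Myl9: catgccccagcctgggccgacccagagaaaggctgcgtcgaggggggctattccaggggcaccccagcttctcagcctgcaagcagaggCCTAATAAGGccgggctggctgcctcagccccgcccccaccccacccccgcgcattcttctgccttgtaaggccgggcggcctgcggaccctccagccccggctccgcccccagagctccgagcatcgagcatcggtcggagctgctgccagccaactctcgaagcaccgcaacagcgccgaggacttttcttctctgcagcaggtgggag
A box was found in 2 of the 10 large rises that have a window in the table, in 0 of the 12 large falls, and in 165 of 10425 tested genes with a window (1.58%). Over all windows of this length the share was 1.63%, and among the genes called higher it was 6 of 216 (2.78%). The motif's consensus is the same on both strands, so 1 search covered both, and the windows of Cnn1 and Acta2 do not hold these letters.

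Marker genes of fibroblasts, meninges and mural cells were higher as a list. Of 20 such genes bright enough to test, 7 rose and 0 fell without the block, and 10 rose and 0 fell with it, beside 1.99% and 5.58% of all genes called higher. Their median difference was 1.13 log2 units, against −0.04 for all genes, and within numbers 1, 2 and 3 it was 1.42, 0.98 and 0.67. Pdgfrb, the receptor that marks pericytes, stood at 8.37, 7.93 and 7.66 with Top2b shRNA and at 5.96, 6.17 and 5.87 with control shRNA (1.98 ± 0.23, adjusted p = 0.0166). Fn1, fibronectin, rose by 1.45 ± 0.29, and Col1a1, the main chain of fibrous collagen, by 1.84 ± 0.43 (adjusted p = 0.0491). Acta2, smooth muscle actin, stood at 11.27, 11.80 and 11.67 with Top2b shRNA and at 8.12, 10.41 and 10.06 with control shRNA, and passed with the block only (adjusted p = 0.0194, against 0.0544 without it). Dcn, decorin, a further fibroblast gene, did not pass (0.36 ± 0.39). The summed intensity of the list was 10010, 14970 and 12740 with Top2b shRNA, against 2517, 5261 and 4804 with control shRNA, and it was 14020, 17340 and 14110 with Top1 shRNA. In bulk RNA, more or fewer cells of a type and more or less RNA per cell cannot be told apart.

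Neuronal markers lay lower, mostly short of the test. Beside the counts of this paragraph stand 1.12% of all genes called lower without the block and 4.58% with it. The summed intensity of 14 pan-neuronal genes was 13470, 17370 and 18470 with Top2b shRNA, against 23220, 22590 and 22530 with control shRNA. The groups did not overlap, and the median difference of the list was −0.58, but 0 of the 14 passed without the block and 1 fell with it (Elavl4, a neuronal RNA-binding protein, −1.07, adjusted p = 0.043 with the block). The sum of 12 excitatory neuron markers was 2513, 2854 and 3079 with Top2b shRNA, against 4505, 4855 and 5139 with control shRNA. Of these, Slc17a6, the vesicular glutamate transporter VGLUT2, stood at 6.79, 6.74 and 6.89 with Top2b shRNA and at 8.47, 7.98 and 7.99 with control shRNA (−1.34 ± 0.28, adjusted p = 0.0369). With the block, Nrgn, a postsynaptic calmodulin-binding protein (−1.32), Tbr1, a deep-layer transcription factor (−1.26), and Bcl11b, another deep-layer factor (−0.95), fell as well. Among 14 interneuron markers, 0 passed without the block. With it, Slc32a1, the vesicular GABA transporter (−1.54, adjusted p = 0.0297), and Reln, the layering protein reelin (−1.22, adjusted p = 0.00782), fell. List medians for pan-neuronal, excitatory and interneuron markers were −0.58, −0.97 and −0.74. With Top1 shRNA against the same controls they were −0.94, −1.14 and −1.18.

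Among the 6 arrays compared, markers of astrocytes, microglia and dividing cells were high mainly in Top2b shRNA replicate 1. Their counts of calls with all replicates stand beside 1.99% of all genes called higher without the block and 5.58% with it. The astrocyte list summed to 32240, 15290 and 14330 with Top2b shRNA and to 15490, 13510 and 12740 with control shRNA. Of 19 astrocyte genes, 1 rose without the block (Clu, the secreted chaperone clusterin, 1.23 ± 0.27, adjusted p = 0.0427), and Gja1, the gap junction protein connexin 43 (1.66), and Id3, an inhibitor of differentiation factors (1.33), joined it with the block. The microglia list summed to 2690, 338.1 and 354.9 with Top2b shRNA, against 487.7, 344.1 and 363.1 with control shRNA, and 0 of its 10 genes passed in limma's fit with or without the block. C1qb, a complement chain made by microglia, stood at 8.98, 4.08 and 4.19 with Top2b shRNA and at 5.00, 4.77 and 4.98 with control shRNA. The 28 genes of dividing cells and progenitors summed to 6956, 2467 and 2260 with Top2b shRNA, against 2581, 2109 and 1884 with control shRNA. Here only Nes, the progenitor filament nestin, rose with the block (0.97, adjusted p = 0.0178). With Top1 shRNA the dividing-cell sums were 5693, 3657 and 5934, above those of the controls in each array. The Top1 shRNA sums were 21250, 15080 and 15860 for astrocytes and 1364, 786.8 and 461.4 for microglia. The part of these markers in the differences of other genes was not tested. Without replicate 1, 9 of the 20 fibroblast, meningeal and mural genes were called higher and 0 lower, beside 10.1% and 12.5% of all genes.

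**Figure D3:**
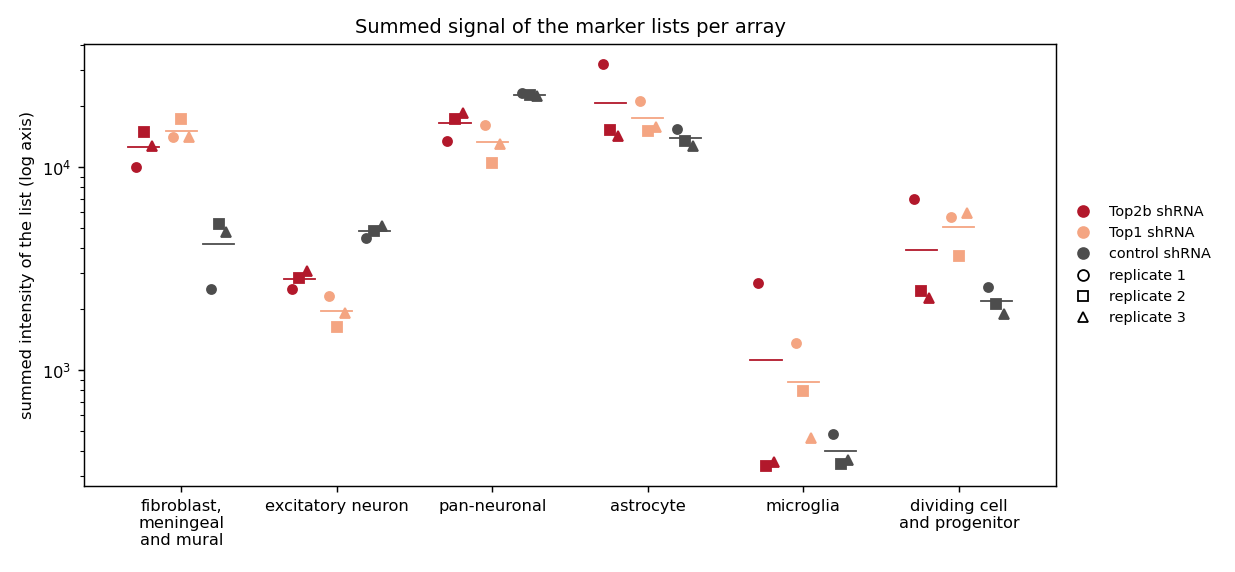
Summed linear intensity of 6 marker lists (log axis) in each array of Top2b shRNA, Top1 shRNA and control shRNA; symbols give the replicate number and bars the group means. Fibroblast, meningeal and mural markers sum to between 10010 and 14970 with Top2b shRNA and to between 2517 and 5261 with control shRNA, while astrocyte, microglia and dividing-cell sums are highest in Top2b shRNA replicate 1.

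The genes that fell most included a co-chaperone, a metabolic enzyme and a matrix proteoglycan. Sgtb, a co-chaperone abundant in brain, stood at 7.90, 6.37 and 6.46 with Top2b shRNA, against 9.76, 8.90 and 8.93 with control shRNA. The difference was −2.28 ± 0.43 log2 units, or 4.87-fold lower (adjusted p = 0.0244). Got1, the cytosolic aspartate aminotransferase of the malate-aspartate shuttle, stood at 9.17, 8.14 and 8.19 with Top2b shRNA and at 10.44, 10.82 and 10.84 with control shRNA (−2.20 ± 0.30, adjusted p = 0.0166). Acan, aggrecan, the core proteoglycan of perineuronal nets, stood at 5.08, 4.14 and 4.62 with Top2b shRNA and at 6.70, 6.41 and 6.48 with control shRNA (−1.92 ± 0.40, adjusted p = 0.036). For each of these genes the groups did not overlap.

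Several of the remaining falls encode membrane and secreted proteins of neurons. Gpr158, an orphan receptor, was the most even, at 6.58, 6.61 and 6.56 with Top2b shRNA and at 8.57, 8.60 and 8.47 with control shRNA (−1.97 ± 0.24, adjusted p = 0.0166). Nxph1, a neurexophilin that binds neurexins, stood at 7.04, 5.67 and 5.94 with Top2b shRNA and at 8.47, 8.13 and 7.91 with control shRNA (−1.95 ± 0.38). Cdh9, a synaptic cadherin, fell by 1.81 (SE 0.35), and Scn2b, an accessory subunit of sodium channels, fell by 1.80 (SE 0.30). Hs3st5, a heparan sulfate sulfotransferase (−2.02 ± 0.34), Scube1, a secreted surface protein (−2.01 ± 0.36), Plcxd2 (−1.93 ± 0.23), Ankrd34c (−1.86 ± 0.27) and Smim13 (−1.80 ± 0.25) completed the 12. Adjusted p for these 12 genes lay between 0.0166 and 0.036. Gene length varied widely among them, with 463 kb for Gpr158, 328 kb for Hs3st5, 14.8 kb for Ankrd34c and 12.2 kb for Scn2b.

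**Figure D4:**
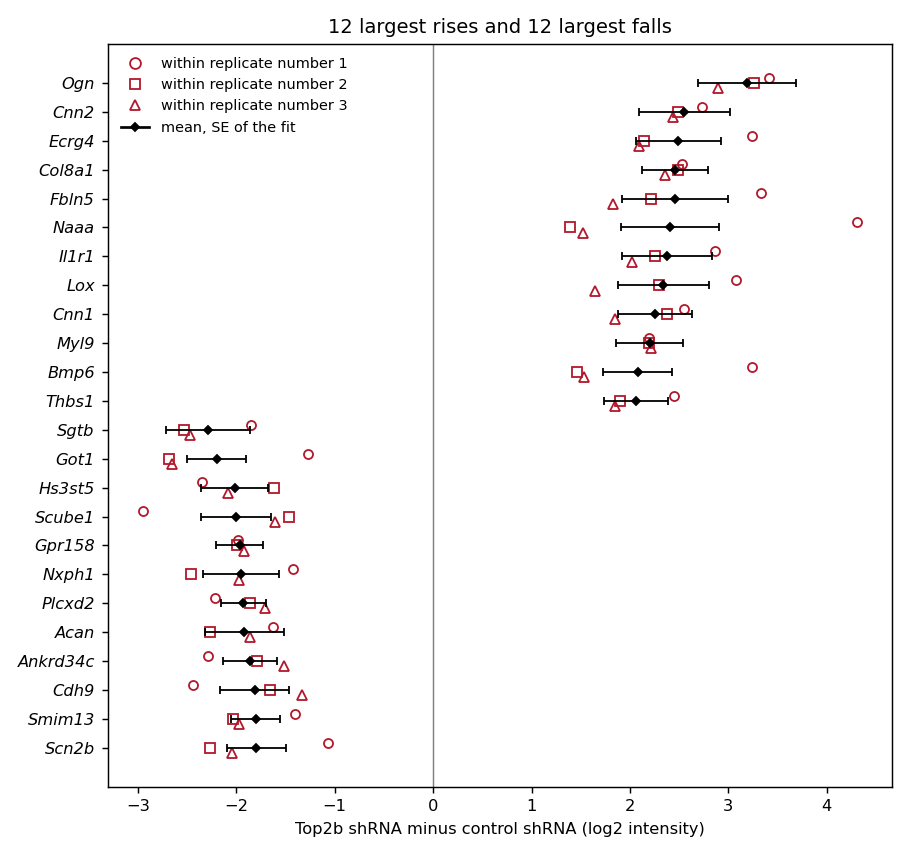
Top2b shRNA minus control shRNA in log2 intensity for the 12 largest rises and 12 largest falls; open symbols are the differences within each replicate number, and black diamonds with bars are the mean and the SE of the fit. Ogn at 3.19 and Sgtb at −2.28 are the ends of the range. All open symbols of a gene lie on the same side of 0 because the genes were chosen that way.

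Genes for ion channels lay lower with Top2b shRNA. Of 35 voltage-gated channel genes, 5 fell and 0 rose without the block and 12 fell with it, beside 1.12% and 4.58% of all genes called lower, and the list's median was −0.75. With Top1 shRNA against the same controls that median was −1.25. Cacna1g, the T-type calcium channel Cav3.1, stood at 6.58, 6.43 and 6.50 with Top2b shRNA and at 9.02, 7.81 and 7.75 with control shRNA (−1.69 ± 0.35, adjusted p = 0.0346). Kcnc2, the fast potassium channel Kv3.2, stood at 5.40, 4.80 and 4.88 with Top2b shRNA and at 6.31, 6.47 and 6.55 with control shRNA (−1.42 ± 0.26, adjusted p = 0.0233). Kcna4, a potassium channel of axons, was called lower by the probe set that is brighter over the 34 arrays of the type (−1.39), but its other probe set gave 0.71, and the mean of both did not pass. Adjusted over all probe sets, neither passed (adjusted p = 0.358 and 0.913). The probe sets that stand for Ptchd1, Scg2 and Bcl2, named below, did not pass that way either (adjusted p = 0.358, 0.353 and 0.358). Without the dim-gene filter 0 of 22180 genes passed in limma's fit. Failing over all probe sets therefore does not set these genes apart from the other calls. Kcnh1, a voltage-gated potassium channel named after its values were seen, fell by 1.25 (SE 0.21, adjusted p = 0.0195). Scn2a, the sodium channel Nav1.2 and an autism candidate, stood at 8.23, 8.77 and 8.83 with Top2b shRNA and at 10.24, 9.74 and 9.94 with control shRNA, and fell with the block only (−1.36, adjusted p = 0.0343, against 0.0717 without it).

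Transmitter receptors and release genes lay lower as well. Of 20 glutamate receptor genes, 1 fell without the block and 4 with it, beside 1.12% and 4.58% of all genes, shares that also stand beside the next lists. The first was Grm3, a presynaptic and glial metabotropic receptor, at 7.84, 8.65 and 8.73 with Top2b shRNA and 10.13, 9.70 and 9.60 with control shRNA (−1.41 ± 0.31, adjusted p = 0.0423). With the block Grm2 (−1.56), Grik1 (−1.44) and Grin3a (−1.09) fell too. Of 11 GABA receptor genes, Gabrd, the extrasynaptic delta subunit, fell without the block (−1.08 ± 0.25, adjusted p = 0.0454), and Gabra3 (−1.34), Gabrb2 (−1.25) and Gabrg1 (−0.66) fell with it. Of 38 vesicle release genes, 2 fell without the block and 5 with it. Syt1, the calcium sensor of fast release, stood at 10.02, 9.24 and 9.54 with Top2b shRNA and at 11.08, 11.40 and 11.29 with control shRNA (−1.66 ± 0.33, adjusted p = 0.0271), and Doc2b, a high-affinity calcium sensor, fell by 1.40 (SE 0.30, adjusted p = 0.038). None of these lists had a member that rose in either fit. Their medians, in the order given, were −0.58, −0.55 and −0.60. With Top1 shRNA against the same controls they were −1.12, −1.27 and −1.01.

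Among 66 genes of synaptic and axonal adhesion, Cdh9 alone fell without the block and 8 fell with it, beside 1.12% and 4.58% of all genes, with a median of −0.59. With Top1 shRNA against the same controls the list's median was −1.16. The block added Tenm1, a teneurin (−1.62), Lrrtm3, a leucine-rich repeat synaptic organiser (−1.25), and Nlgn2, the neuroligin of inhibitory synapses (−1.08), among others. Of 20 clustered protocadherin genes, which give neurons surface identity, 1 fell without the block (Pcdhb2, −1.15, adjusted p = 0.0399) and 3 with it, beside the same shares. Members of this cluster are near copies of each other and their probe sets may cross-react. Of 37 axon guidance genes, Ntn4, a netrin of basement membranes, stood at 8.33, 8.57 and 8.17 with Top2b shRNA and at 6.25, 6.62 and 6.61 with control shRNA, and rose by 1.87 (SE 0.24, adjusted p = 0.0166). Unc5c, a repulsive netrin receptor (−1.48 ± 0.32, adjusted p = 0.038), and Efnb3, a transmembrane ephrin (−1.47 ± 0.32, adjusted p = 0.0398), fell. Sema3c, a secreted semaphorin, rose with the block only (0.92, adjusted p = 0.0278). Of all genes, 1.99% were called higher without the block and 5.58% with it. Of 8 genes of the neurotrophin system 0 passed in limma's fit in either form. Ngfr, the p75 neurotrophin receptor, stood at 5.20, 4.60 and 5.08 with Top2b shRNA and at 6.29, 5.70 and 5.45 with control shRNA (−0.85 ± 0.38, adjusted p = 0.274, or 0.0586 with the block).

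Of 70 autism candidate genes, 2 fell and 0 rose without the block, and 6 fell and 0 rose with it, beside 1.12% and 4.58% of all genes. The list's median was −0.33. One that fell without the block was Ptchd1, an X-linked membrane protein of the synapse, at 6.36, 6.98 and 6.98 with Top2b shRNA and 9.34, 7.93 and 8.01 with control shRNA (−1.65 ± 0.37, adjusted p = 0.0442). Ptchd1 did not pass as the mean of its probe sets (adjusted p = 0.151). The other was Dlgap2, a scaffold of the postsynaptic density, named after its values were seen (−1.21 ± 0.27, adjusted p = 0.0442). Ube3a, the ubiquitin ligase lost in Angelman syndrome, stood at 8.88, 8.29 and 8.29 with Top2b shRNA and at 9.56, 8.97 and 9.05 with control shRNA. It fell with the block only (−0.71 ± 0.25, adjusted p = 0.0415, against 0.162 without it), and its other probe set did not pass (−0.33). Cntnap2, a neurexin-like protein of axons, stood at 8.90, 8.22 and 8.55 with Top2b shRNA and at 8.95, 9.15 and 9.07 with control shRNA and did not pass (−0.50 ± 0.47, adjusted p = 0.651).

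Gene length, the property the study centres on, was followed across all genes. The median difference was −0.003 for 3557 genes of up to 10 kb and −0.26 for 839 genes over 200 kb, where it was −0.32, −0.23 and −0.15 within replicate numbers 1, 2 and 3. Of the genes over 200 kb, 17 rose and 23 fell without the block (2.03% and 2.74%, beside 1.99% and 1.12% of all genes). With the block, 50 rose and 76 fell (5.96% and 9.06%, beside 5.58% and 4.58%). The 1147 genes of 100 to 200 kb had more rises than falls, at a median of −0.07. Here 38 rose and 17 fell without the block (3.31% and 1.48%), and 101 and 76 with it (8.81% and 6.63%). Of 1986 genes over 100 kb, 55 rose and 40 fell without the block, and 151 rose and 152 fell with it. The long-gene score, the mean log2 intensity of genes over 100 kb minus that of the other genes, was 0.390, 0.510 and 0.553 with Top2b shRNA, against 0.611, 0.580 and 0.566 with control shRNA. Each Top2b shRNA array lay below each control array, by 0.013 only between the replicates numbered 3. The mean difference was −0.101, and the exact permutation test over the 6 arrays, two-sided, gave p = 0.1, which is as low as it can go with groups of 3. The arrays with Top1 shRNA, which share these controls, scored 0.458, 0.194 and 0.443. Set side by side, the median of genes over 200 kb was −0.45 with Top1 shRNA, −0.68 with 1 µM topotecan, an inhibitor of topoisomerase I, and −0.13 with 3 µM ICRF-193, an inhibitor of topoisomerase II, each drug against its own vehicle.

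Among 64 very long neuronal genes, 2 fell and 0 rose without the block and 5 fell and 0 rose with it, beside 1.12% and 4.58% of all genes lower, with a median of −0.57. Without replicate 1, 12 were called lower and 4 higher, beside 12.5% and 10.1% of all genes. Galntl6, a glycosyltransferase gene, stood at 6.50, 6.47 and 6.79 with Top2b shRNA and at 7.82, 7.70 and 7.80 with control shRNA (−1.19 ± 0.25, adjusted p = 0.0374). Cdh18, a cadherin, stood at 6.08, 5.93 and 6.54 with Top2b shRNA and at 7.71, 7.21 and 7.17 with control shRNA (−1.18 ± 0.25, adjusted p = 0.038). Prkg1, a cGMP-dependent kinase (−0.93), and Lsamp, an adhesion protein of limbic neurons (−0.84), fell with the block only. Most of these genes are neuronal, and the neuronal marker sums were lower in the same arrays. The part of the markers in the length difference was not tested.

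**Figure D5:**
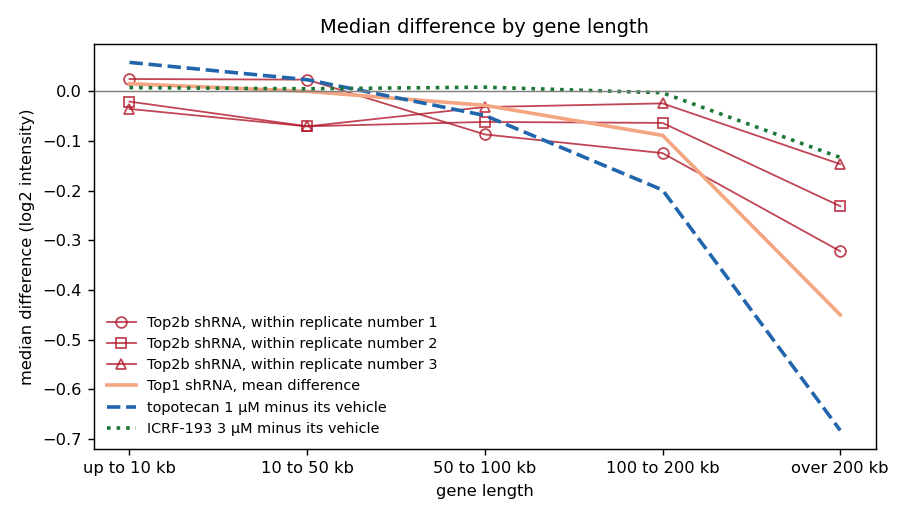
Median difference in log2 intensity (vertical axis) by class of gene length, for Top2b shRNA minus control shRNA within each replicate number, for Top1 shRNA minus control shRNA, and for 1 µM topotecan and 3 µM ICRF-193 each minus its own vehicle. Genes over 200 kb have medians of −0.32, −0.23 and −0.15 with Top2b shRNA, −0.45 with Top1 shRNA, −0.68 with topotecan and −0.13 with ICRF-193.

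Genes of cholesterol synthesis were lower together. Of 17 sterol genes, 3 fell and 0 rose without the block and 8 fell with it, beside 1.12% and 4.58% of all genes, and 16 lay lower within all 3 replicate numbers, beside 30.8% of all genes. Their median was −0.92, and −0.65, −1.04 and −0.85 within numbers 1, 2 and 3. With Top1 shRNA against the same controls it was −0.82. Stard4, a cholesterol carrier, stood at 5.61, 5.68 and 6.05 with Top2b shRNA and at 6.57, 7.68 and 7.67 with control shRNA (−1.53 ± 0.34, adjusted p = 0.0442). Lss, lanosterol synthase (−1.28 ± 0.26, adjusted p = 0.0316), and Cyp51, lanosterol demethylase (−1.12 ± 0.21, adjusted p = 0.0248), fell too, and Hsd17b7 fell with the block (−1.34). Without replicate 1, 15 of the 17 were called lower, beside 12.5% of all genes.

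With all replicates, the activity list held few calls: 1 rose and 1 fell without the block, and 1 rose and 3 fell with it. Of all genes, 1.99% rose and 1.12% fell without the block, and 5.58% rose and 4.58% fell with it. Of 38 activity-regulated genes, Ccn1, a matrix-associated early gene, stood at 10.39, 10.38 and 10.06 with Top2b shRNA and at 9.00, 8.90 and 8.73 with control shRNA and rose by 1.40 (SE 0.20, adjusted p = 0.0166). Scg2, secretogranin II of dense-core vesicles, stood at 7.30, 7.32 and 7.29 with Top2b shRNA and at 8.73, 8.26 and 8.00 with control shRNA and fell by 1.03 (SE 0.24, adjusted p = 0.0466). Pcsk1, a convertase of neuropeptide precursors, fell with the block only (−2.29 ± 0.56, adjusted p = 0.0328, against 0.0558 without it), as did Vgf, a neuropeptide precursor (−1.07). Fos and Npas4, immediate early genes, did not pass. Fos stood at 7.44, 5.88 and 5.92 with Top2b shRNA and at 7.73, 5.19 and 5.00 with control shRNA, so replicate 1 was high in each group.

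Of 32 p53 targets, 2 rose and 1 fell without the block, and 3 rose and 1 fell with it. Of all genes, 1.99% rose and 1.12% fell without the block, and 5.58% rose and 4.58% fell with it. These shares also stand beside the later lists of this paragraph. Fas, a death receptor, stood at 7.78, 8.43 and 8.20 with Top2b shRNA and at 6.59, 6.67 and 6.37 with control shRNA (1.59 ± 0.35, adjusted p = 0.0399). Ddit4l, an inhibitor of growth signalling, rose by 1.06 (SE 0.24), and Plk3, a stress kinase, fell by 1.33 (SE 0.20, adjusted p = 0.0166). The list's median was −0.19, 0.76 and 0.86 within numbers 1, 2 and 3, so replicate 1 lay on the other side of 0. Ckap2, a spindle protein, rose with the block only (0.95, adjusted p = 0.0393). Without replicate 1, 20 of the 32 targets were called higher and 2 lower, beside 10.1% and 12.5% of all genes. The same shares stand beside the later counts without replicate 1. Cdkn1a, the p53-induced inhibitor of the cell cycle, stood at 10.78, 11.71 and 11.65 with Top2b shRNA and between 10.94 and 11.03 in the 3 control shRNA arrays (0.39 ± 0.32, adjusted p = 0.598). Of 25 interferon-stimulated genes 0 passed without the block, and Ddx58, an RNA sensor (1.50), Tap1, a peptide transporter (1.10), B2m, the light chain of MHC class I (0.80), and Irf1, a transcription factor (0.69), rose with it. Without replicate 1, 8 of the 25 were called higher and 1 lower. Of 28 genes of the integrated stress response, Asns, asparagine synthetase, fell without the block (−1.11 ± 0.23, adjusted p = 0.0353). With the block Aldh1l2, a mitochondrial folate enzyme (−1.62), and Vldlr, a lipoprotein and reelin receptor (−0.98), fell too, and Atf5, a stress transcription factor, rose (0.70). Without replicate 1, 2 of the 28 were called higher and 8 lower. Of 18 apoptosis genes Bcl2, a survival protein, rose (1.11 ± 0.26, adjusted p = 0.048), but its other probe set gave 0.23 and the mean of both did not pass (adjusted p = 0.282). Casp6, an executioner caspase, rose with the block only (0.84, adjusted p = 0.0367). Without replicate 1, 7 of the 18 were called higher and 2 lower. Genes for ribosomal proteins (34) and for cohesin and CTCF (11) had 0 calls in limma's fit with or without the block.

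Top2b shRNA was set directly against Top1 shRNA in the same fit. No gene passed (0 of 13308, 0%) in limma's fit with or without the block, with 806 and 1588 genes at an unadjusted p under 0.05. Top2b itself differed by −1.11 log2 units between Top2b shRNA and Top1 shRNA (adjusted p = 0.801). The outcome turned on replicate 1. Without it, with 2 arrays a group, 1032 genes were higher (7.75%) and 856 lower (6.43%) with Top2b shRNA than with Top1 shRNA, and 1600 genes passed with the block added. These counts describe 2 arrays a group. The long-gene score of the 2 arrays with Top1 shRNA was 0.194 and 0.443, so they stood apart from each other by that measure.

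In that fit without replicate 1, Top2b lay 1.84 ± 0.14 log2 units lower with Top2b shRNA, at 6.87 and 6.80 against 8.76 and 8.60 with Top1 shRNA (adjusted p = 0.00652). Acan stood at 4.14 and 4.62 with Top2b shRNA and at 6.52 and 5.82 with Top1 shRNA (difference −1.79 ± 0.26, adjusted p = 0.0118). Got1 (−1.62 ± 0.17), Sgtb (−1.59 ± 0.19), Vgf (−1.51 ± 0.24) and Ube3a (−0.74 ± 0.13) were lower as well. The other Ube3a probe set lay the other way, at 9.69 and 9.99 with Top2b shRNA and at 6.00 and 9.01 with Top1 shRNA. Other neuronal genes were higher with Top2b shRNA than with Top1 shRNA: 22 of 64 very long genes, 27 of 66 adhesion genes and 16 of 20 clustered protocadherins, which are short (median 3.472 kb). Beside these and the later counts of this paragraph stand 7.75% of all genes called higher and 6.43% called lower. Of 839 genes over 200 kb, 164 were higher and 20 lower. Slc17a7, the vesicular glutamate transporter VGLUT1, stood at 8.53 and 8.73 with Top2b shRNA and at 6.05 and 4.95 with Top1 shRNA (3.13 ± 0.33, adjusted p = 0.00712). In replicate 1 this gene stood at 6.87 with Top2b shRNA and at 6.97 with Top1 shRNA. Of 25 interferon-stimulated genes, 14 were lower with Top2b shRNA than with Top1 shRNA, and of 28 genes of dividing cells 12 were. Of the 20 fibroblast, meningeal and mural genes, 1 was lower and 0 were higher, and Ogn stood at 10.72 and 10.39 with Top2b shRNA and at 10.68 and 9.84 with Top1 shRNA.

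ICRF-193, a drug that blocks topoisomerase II, was given to other neurons at 3 µM and measured on another array type against its own vehicle. The drug and the hairpin are different kinds of treatment measured on different array types, and their values are placed side by side only. Of 10136 genes tested on both arrays, 831 (8.2%) were higher and 1079 (10.6%) lower with ICRF-193. Of 206 genes higher with Top2b shRNA, 13 were higher with ICRF-193, which is 6.31% of the Top2b shRNA list and 1.56% of the ICRF-193 list, and 29 were lower (14.1% and 2.69%). Of 119 genes lower with Top2b shRNA, 20 were lower with ICRF-193 (16.8% and 1.85%) and 24 were higher (20.2% and 2.89%). Of the 12 largest rises, 11 were tested with ICRF-193. Col8a1 (0.33, adjusted p = 0.00977) and Cnn2 (0.25, adjusted p = 0.0337) were higher with it, Bmp6 (−0.59, adjusted p = 0.00524), Naaa (−0.37, adjusted p = 0.00822) and Myl9 (−0.22, adjusted p = 0.0245) were lower, and the other 6 did not pass. Of the 12 largest falls, 8 were tested. Got1 (−0.25, adjusted p = 0.00591) and Nxph1 (−0.44, adjusted p = 0.00135) were lower with ICRF-193, Cdh9 was higher (0.26, adjusted p = 0.00462), and the other 5 did not pass. Galntl6 was lower in each comparison, by −1.19 with Top2b shRNA and −0.83 with ICRF-193 (adjusted p = 1.06e-04).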

How the data were processed

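The deposited values are linear intensities per probe set, made by the authors with RMA (a background correction, normalization and summary of probes) in Affymetrix Expression Console, per the submitters' processing notes. The design foresaw log2 values, so log2 of the deposited intensity was taken. Probe sets with 1 gene symbol in the platform annotation were kept (23521 of 41345), the brightest over the 34 arrays of the type stood for its gene, and the dimmest genes, with a mean log2 intensity below the 40th percentile (5.01), were left out. Gene lengths are from RefSeq (GRCm38.p6). All intensities carry a normalization across arrays, so a level is relative to the other genes. The number of arrays limits the precision.

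The 9 shRNA arrays were fitted with limma 3.58.1 in R 4.3.3 (lmFit and eBayes, 1 mean per group, Benjamini-Hochberg adjustment over 13308 genes, threshold 0.05). The fit was tested on simulated data. An error written after ± is the SE of that fit, with n = 3 arrays a group, also for genes that passed with the block only. Errors of values given without replicate 1 are the SE of the fit without it, with 2 arrays a group. The replicate numbers were checked for pairing: deviations from the group means of Top2b shRNA and control shRNA arrays of the same number correlated at 0.448, 0.385 and 0.350, so the fit with the number as a block is given beside the main result. Top2b shRNA replicate 2 correlated with control replicate 3 at 0.397, so numbers 2 and 3 are not distinguished from each other. For a single value per array an exact permutation test was used.

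Genes named are the 12 largest rises and 12 largest falls past the threshold whose groups do not overlap, leaving out predicted genes, up to 4 called members of each list, and a few genes named always (Top2b, Top2a, Top1, Ngfr, Ntrk2, Fos, Npas4, Cdkn1a, Ube3a, Cntnap2, Reln). C1qb, Pdgfrb, Fn1, Col1a1, Dcn, Slc17a7, Dlgap2 and Kcnh1 were chosen after their values were seen. The arrays, gene lists and tests were chosen with earlier results of these data known. The list of oligodendrocyte markers (7 genes) had 0 calls in either form of the fit, that of endothelial markers (6 genes) had 1 with the block, that of histones (4 genes) had 0, and 0 red blood cell markers were bright enough. Alternatives tried were the block, replicate 1 against the others as a block, another quantile normalization, the 6 arrays alone, the dim-gene filter, the mean of probe sets, an offset of 16 and leaving out arrays.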

Additional observations from a re-analysis of the deposited data

How the results depend on the processing

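The 414 calls for Top2b shRNA against control shRNA numbered 339 to 504 in 5 settings: new quantile normalization (504, with 56.9% higher against 64% as reported), the 6 arrays alone (339), the 60th percentile filter (443), the mean of probe sets (363) and an offset of 16 (465). They numbered 1352 with the replicate block, 1982 with replicate 1 set against the others as a block, 1163 with the replicate block in the 6 arrays alone (chosen after seeing the data), and 0 without the dim-gene filter. The replicate block ended none of the 414 calls. Leaving out 1 replicate number or array gave 0 to 3003 calls: 3003 without replicate 1 (44.8% higher), 0 without replicate 2 or 3 or without any of Top2b shRNA replicates 2 and 3 and control replicates 2 and 3, 373 without Top2b shRNA replicate 1 and 411 without control replicate 1. With the replicate block added after seeing the data these counts were 2698 without replicate 1 and 0 without replicate 2 or 3. Of the 414 genes, 412 were among the 3003 and 274 among the 339. The cause was not tested. Top2b shRNA against Top1 shRNA gave 0 calls in every other setting run, 1888 without replicate 1 and 1600 without it with the block. The Top2b level was −1.19 and not called, and was called at −1.44 without replicate 1 (adjusted p = 0.00185, or 0.00492 with the block), at −1.78 without Top2b shRNA replicate 1 (adjusted p = 0.0307) and in the 6 arrays with the block (−1.19, adjusted p = 0.0381), within a range of −1.78 to −0.849 over the replicates and arrays left out. The long-gene score stayed negative in every setting run, from −0.145 to −0.041, but its exact p was 0.5 without the dim-gene filter and 0.2 with the 60th percentile filter, where the groups overlapped. Of named genes not called, leaving out replicates or arrays moved Ntrk2 between −0.39 and 0.26, Top2a between −0.010 (without replicate 1, also with the block) and 1.60, Fos between −0.080 and 1.31, and Npas4 between −1.245 and 0.066, and Ntrk2 turned to −0.024 under quantile normalization and to −0.13 without replicate 1 with the block. Of the 50 named genes called without the block, 39 stayed called under quantile normalization, 34 in the 6 arrays and 46 with the mean of probe sets.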

Other observations

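Genes of motile cilia and of the choroid plexus, chosen here after their values were seen and belonging to no list, were also among the genes higher with Top2b shRNA. Ttr, transthyretin, the main secreted protein of the choroid plexus, stood at 11.56, 12.07 and 12.04 with Top2b shRNA, against 10.61, 9.58 and 10.10 with control shRNA, and rose by 1.79 ± 0.38 log2 units (adjusted p = 0.0378). Lrp2, the endocytic receptor megalin, rose by 1.80 ± 0.30, and Slc39a12, a zinc transporter, by 1.84 ± 0.34. Among genes for parts of the ciliary axoneme, Dnali1 rose by 1.73 ± 0.37, Cfap44 by 1.53 ± 0.28, Drc7 by 1.04 ± 0.24 and Iqcg by 1.42 ± 0.28. Foxj1, the transcription factor that switches on motile cilia genes, stood at 8.91, 7.63 and 7.28 with Top2b shRNA and at 6.59, 6.49 and 6.35 with control shRNA, and rose with the replicate block only (1.47, adjusted p = 0.0213, against 0.0642 without it). Rsph1, a radial spoke protein, did not pass in either form (1.01 ± 0.32, adjusted p = 0.126, or 0.0606 with the block), nor did Ccdc153 (0.39 ± 0.33). Being picked for their rise, these genes carry no count or test as a group.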
